A study of Mus musculus with 4 samples.

Results

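The 10 genes described here encode the core of the Notch pathway in mouse epidermal stem cells (EpSCs): the receptors Notch1, Notch2 and Notch3, the ligands Jag1, Jag2 and Dll1, the receptor-modifying enzyme Lfng, the DNA-binding factor Rbpj and the effectors Hes1 and Hey1. They were taken by gene symbol from the 54532 genes of the deposited count table, and each symbol matched 1 row. These progenitor keratinocytes of the epidermis came from the skin of mice of the C57BL/6 strain and were kept in EpiLife with HKGS additives. Cultures of the ALP group received 30 μg/mL ALP for 48 h, taken from the series title to stand for a polysaccharide of Arctium lappa L. (burdock), and control cultures received 0.06% DMSO for 48 h. Each group held 2 libraries. The age and number of the mice, and whether the ALP cultures also received DMSO, are unstated in the sources used here. Whether the pair of libraries in a group stems from separate cultures or animals is unstated too, and p-values therefore reflect the spread between libraries alone, possibly a technical one.

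Notch receptors are cut by furin on the way to the cell surface, where they meet ligands of the Jagged and Delta-like families on neighbouring cells. Ligand binding exposes the receptor to ADAM proteases and then to gamma-secretase, and the freed intracellular domain joins Rbpj and a Mastermind protein in the nucleus to switch on Hes and Hey genes, which encode transcriptional repressors. In the epidermis Notch signalling is best known for accompanying the exit of keratinocytes from the basal layer and their differentiation. The amount of a transcript is no measure of how much receptor is cleaved.

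All 4 libraries had between 15766244 and 17430345 counts. On the first principal component, which held 89.9% of the variance, ALP replicate B (-58.7) lay farther from the controls (44.2 and 33.6) than ALP replicate A did (-19.1). Letters are names and pair nothing. Basal keratinocyte markers were abundant in every library, with a summed level of 6 markers of 36147 and 29850.3 CPM in ALP and 48103 and 48336 CPM in control (CPM, counts scaled to a common library size with TMM factors). Of these 6, Itgb4 and Itga6 rose (log2 difference 1.14 and 0.38), Trp63 and Col17a1 fell (-0.61 and -0.78), and Krt5 and Krt14, which make up most of the sum, did not pass. Of 5 suprabasal markers 2 fell, 1 rose and 2 did not pass, and their summed level was 828 and 39.0 CPM in ALP, compared with 3219 and 2666 CPM in the controls. Melanocyte markers summed to between 29.1 and 41.8 CPM. In these bulk samples, fewer cells of a type and less RNA per cell cannot be told apart.

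Promoter windows were available in RefSeq (GRCm38.p6) for 8 of the 10 genes, and 3 of them are shown because they contrast the gene that passed the test (Jag1), the ligand with the largest measured decrease (Dll1) and a gene carrying the motif of Rbpj (Lfng). Each runs 5′ to 3′ on the strand of the gene, ends before the first base annotated as exon or the RefSeq start, and has the Rbpj core motif TGGGAA, or its reverse TTCCCA, in capitals. The positions are chr2:137116645-137116770 (minus strand) for Jag1, chr17:15376933-15377182 (minus strand) for Dll1 and chr5:140607091-140607319 (plus strand) for Lfng.
Jag1: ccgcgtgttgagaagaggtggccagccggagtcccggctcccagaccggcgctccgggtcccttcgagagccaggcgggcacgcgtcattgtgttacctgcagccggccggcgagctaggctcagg
Dll1: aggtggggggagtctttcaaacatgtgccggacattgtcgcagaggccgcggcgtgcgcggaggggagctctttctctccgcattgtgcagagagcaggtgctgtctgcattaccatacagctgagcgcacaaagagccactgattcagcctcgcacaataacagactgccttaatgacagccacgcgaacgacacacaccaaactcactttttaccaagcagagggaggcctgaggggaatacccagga
Lfng: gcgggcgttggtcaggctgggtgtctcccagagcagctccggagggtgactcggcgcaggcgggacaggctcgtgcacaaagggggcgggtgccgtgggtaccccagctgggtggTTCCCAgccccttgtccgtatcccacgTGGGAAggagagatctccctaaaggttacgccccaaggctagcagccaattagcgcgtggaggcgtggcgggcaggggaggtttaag
The Lfng window held 2 matches, one on each strand, beginning 135 and 108 bases before the RefSeq start. The nearer one also matched the longer form GTGGGAA, which contains the core. The stretches of Jag1 and Dll1 held 0 matches. Dll1 has another RefSeq window, chr17:15375824-15376073, which is not shown and also held 0 matches. Over the 250 bases before each RefSeq start, 3 of 10 windows of the members held the core, belonging to Lfng and to both starts of Rbpj. The Rbpj windows overlap and share a match, so by gene 2 of 8 members held the core. The same search, on both strands, found it in 21.6% of all 32851 promoter windows and the longer form in 5.42%. A match is a string of letters and not a measured binding site.

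One of the 10 genes rose after ALP, 0 fell, and 9 did not pass the test. Jag1 was the gene that rose, by 1.47-fold. A gene passed when its adjusted p from the quasi-likelihood test of edgeR, over all 14056 genes tested, was under 0.05, and all 10 members passed the filter on low counts. Across all tested genes 18.0% rose and 12.9% fell, so the share of members that passed, 1 of 10, is no larger than this background of 30.9% in both directions together. At an adjusted p under 0.1, 2 members were higher and 5 lower, with 24.2% of all genes higher, 21.2% lower and 45.4% either. The same counts of members, 2 and 5, had an unadjusted p under 0.05, which 46.6% of all genes had. DESeq2 and limma-voom each called 1 member higher, Jag1, and 1 lower, Dll1. Over all genes DESeq2 called 32.0% of the 12853 to which it gave an adjusted p, and limma-voom called 33.7%. The median log2 difference of the 10 genes was -0.29, against -0.0029 over all genes tested, and the median size regardless of direction was 0.41 against 0.39.

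**Figure D1:**
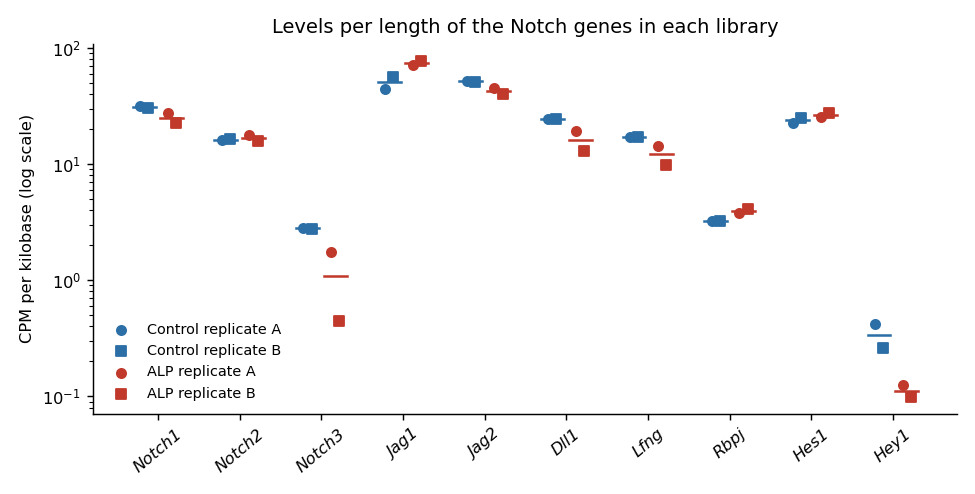
Level of each gene in every library in CPM per kilobase (log axis), with controls in blue and ALP in red, circles for replicate A, squares for replicate B and bars for group means. Jag1 is the highest gene in both ALP libraries, and Notch3 and Hey1 are the lowest genes in all 4 libraries.

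Between genes, levels are compared per length, as CPM per kilobase of the gene length in the deposited table. For Rbpj, Lfng and Notch1 this length equals all annotated exons merged (12750, 2505 and 14232 bases), which can exceed the transcript present. Before division by length Rbpj (41.0 CPM) lay near Lfng (42.9 CPM) in the controls, so the order depends on the length used. In the controls Jag2 (51.4 ± 0.762 CPM per kilobase; mean ± SD, n = 2) and Jag1 (50.4 ± 8.37) stood highest and overlapped each other. Notch1 (30.9 ± 1.14) followed, then Dll1 (24.4 ± 0.120) and Hes1 (23.7 ± 1.55), which overlapped. Lfng (17.1 ± 0.0880) lay just above Notch2 (16.2 ± 0.158), and Rbpj (3.21 ± 0.0101), Notch3 (2.79 ± 0.0481) and Hey1 (0.339 ± 0.109) were far lower. In ALP the order was Jag1 (73.9 ± 4.71), Jag2 (42.5 ± 3.22), Hes1 (26.4 ± 1.22), Notch1 (24.8 ± 3.61), Notch2 (16.8 ± 1.38), Dll1 (16.1 ± 4.51), Lfng (12.1 ± 3.16), Rbpj (3.96 ± 0.229), Notch3 (1.09 ± 0.913) and Hey1 (0.112 ± 0.0177). There Hes1 overlapped Notch1, Notch2 overlapped Dll1, and Dll1 overlapped Lfng, whereas Jag1 lay clear of Jag2.

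Of the 3 ligands Jag1 rose, and Jag2 and Dll1 did not pass. Jag1, a transmembrane ligand of all 3 receptors on chromosome 2 (137081456 to 137116644, minus strand), measured 411 and 450.3 CPM in ALP and 259 and 328 CPM in the controls. Both ALP libraries lay above both controls, which themselves differed. The log2 difference of Jag1 was 0.55 ± 0.13 (SE, n = 2 in each group, 95% interval 0.22 to 0.89, adjusted p = 0.0329). Leaving out ALP replicate A gave 0.61, and leaving out B gave 0.50. Without control replicate A it was 0.38 (adjusted p = 0.23) and without control replicate B 0.74 (adjusted p = 0.0772), and the call was lost in both fits, in which edgeR called 0 of all genes. Over all genes, 3380 and 4131 had an unadjusted p under 0.05 in these 2 fits. Without the filter on low counts Jag1 kept the same log2 value of 0.55 and did not pass (adjusted p = 0.0867).

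Jag2, the second Jagged ligand (chromosome 12, 112907819 to 112929776, minus strand), measured 312 and 279.9 CPM in ALP and 362 and 354 CPM in control. Its libraries did not overlap between groups, and the difference was small next to that of Jag1 (log2 difference -0.28 ± 0.09, 95% interval -0.50 to -0.05, adjusted p = 0.0666). Jag2 did not pass. With only genes of at least 10 CPM in 2 libraries tested, its adjusted p was 0.0434, in a test that called 39.7% of genes. Dll1, a Delta-like ligand linked to clusters of epidermal stem cells, lies on chromosome 17 (15367354 to 15376872, minus strand) and measured 81.4 and 54.5 CPM in ALP against 103 and 103 CPM in control. The controls were nearly equal, and ALP replicate B was much the lowest library. The log2 difference of Dll1 was -0.60 ± 0.19 (95% interval -1.07 to -0.13, adjusted p = 0.0609), and it passed by DESeq2 (adjusted p = 0.015) and by limma-voom (adjusted p = 0.0453). Leaving out ALP replicate A gave -0.92 for Dll1, and leaving out B gave -0.33. A gene on the opposite strand, A930024N18Rik, shares 20.5% of the exon bases of Dll1 and had 63 counts over the 4 libraries against 5873 for Dll1.

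The make-up of the ligand transcripts differed between the groups in both libraries of each, while their sum overlapped. Jag1 made up 36.9% and 42.8% of the summed CPM per kilobase of the 3 ligands in the controls and 52.4% and 59.3% in ALP. Dll1 made up 20.2% and 18.6% in the controls and 14.3% and 9.91% in ALP. The ratio of Jag1 to Jag2 was 0.857 and 1.11 in the controls and 1.58 and 1.92 in ALP. The sum was 121 and 132 CPM per kilobase in the controls and 135 and 130.4 in ALP, so the groups overlapped in the total. These shares are descriptions with no test. With 2 against 2 libraries an exact two-sided permutation test cannot go below p = 0.333.

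**Figure D2:**
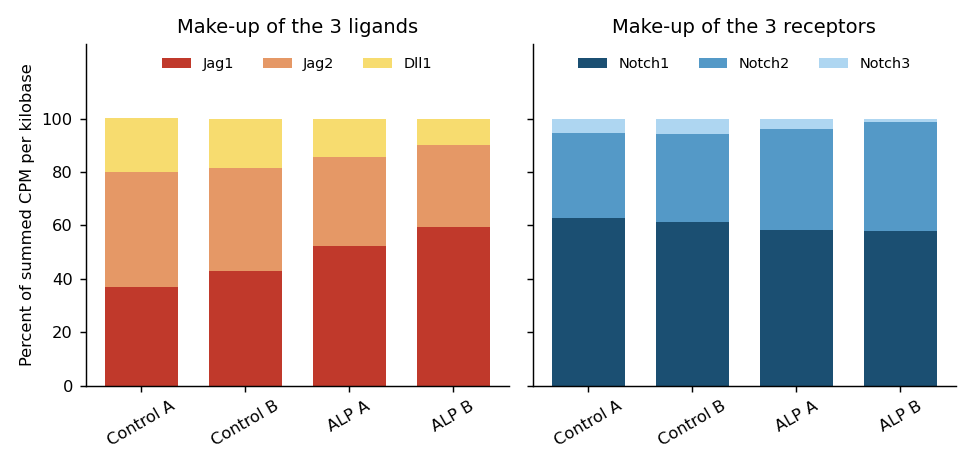
Share of each ligand (left) and each receptor (right) in the summed CPM per kilobase of its class, 1 stacked bar per library. Jag1 takes 52.4% and 59.3% of the ligand total in ALP against 36.9% and 42.8% in control, and Notch1 stays the most abundant receptor in all 4 libraries.

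None of the receptors passed. Notch1, the main receptor of keratinocytes (chromosome 2, 26457903 to 26516663, minus strand), measured 390.0 and 317 CPM in ALP and 451 and 428 CPM in control. Both ALP libraries were below both controls, by -0.17 and -0.47 on the log2 scale against the control mean, and the fitted difference was -0.31 ± 0.12 (adjusted p = 0.0976). That difference was -0.47 when ALP replicate A was left out and -0.16 when B was. Notch2 (chromosome 3, 98013527 to 98150361, plus strand) measured 192 and 171 CPM in ALP and 173 and 175 CPM in control. Its groups overlapped, and the 95% interval of the log2 difference, -0.17 to 0.28, holds the sizes these libraries leave possible (0.06 ± 0.09, adjusted p = 0.655). Per length, the ratio of Notch1 to Notch2 was 1.97 and 1.85 in the controls and 1.54 and 1.41 in ALP.

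Notch3 (chromosome 17, 32120820 to 32166880, minus strand, as the deposited table gives it, which differs from GENCODE M21) had the widest spread of the members with more than 1 CPM. It measured 13.9 and 3.56 CPM in ALP and 22.7 and 22.2 CPM in control. The control libraries were nearly identical, while ALP replicate A lay -0.69 and ALP replicate B -2.65 from the control mean on the log2 scale. The fitted difference was -1.35 ± 0.55 (95% interval -2.71 to 0.02, adjusted p = 0.111), and Notch3 did not pass. That difference became -2.66 with ALP replicate A left out and -0.67 with B left out. The suprabasal keratins Krt1 and Krt10, which mark differentiating cells, had the same order over the libraries, as did Lor and Flg, which fell (adjusted p = 0.0149 and 0.0171). Notch1, Jag2 and Hey1 had this order too, and Jag1, Hes1 and Rbpj had it reversed. It is the order of the libraries on the first principal component. How many of all genes share it was not counted. Ivl, the remaining suprabasal marker, rose by 0.92 on the log2 scale (adjusted p = 0.0380), from 5.04 and 4.68 CPM in control to 7.70 and 10.7 CPM in ALP. Krt1 measured 663 and 19.7 CPM in ALP and 2511 and 2086 CPM in control. Krt10 measured 150.1 and 5.04 CPM in ALP and 669 and 545 CPM in control, and neither passed (adjusted p = 0.164 for Krt1 and 0.125 for Krt10). The part of such cells in the Notch3 values was not tested. Markers of mural cells, the vessel cells known for Notch3, included Rgs5 with 1 count over the 4 libraries and Kcnj8 with 1 count, and the 5 markers summed to 12.2 and 9.83 CPM in ALP and 30.9 and 30.8 CPM in control, nearly all of it Cspg4.

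**Figure D3:**
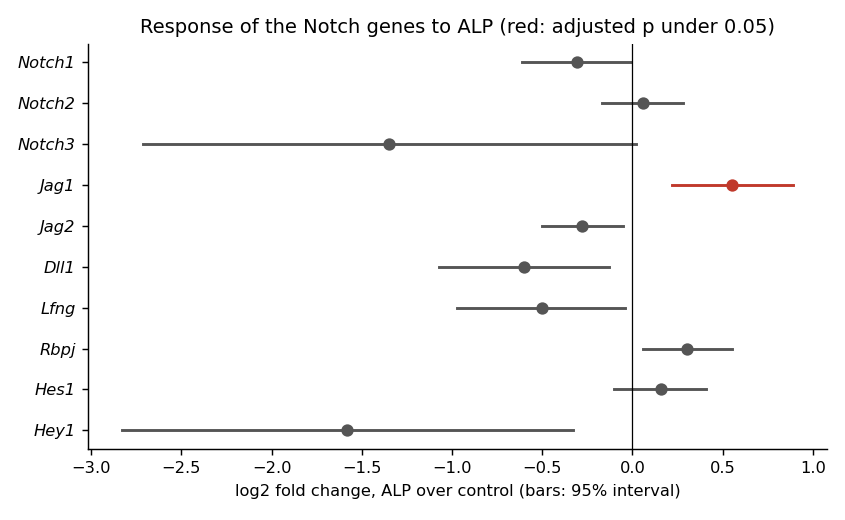
Fitted log2 fold change of ALP over control for each gene, with its 95% interval. The interval of Jag1 (0.22 to 0.89, red) belongs to the gene that passed, and those of Notch3 and Hey1 are the widest.

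Lfng encodes Lunatic fringe, a glycosyltransferase that extends sugars on the receptors and shifts their response from Jagged towards Delta-like ligands. It lies on chromosome 5 (140607320 to 140615545, plus strand) and measured 35.8 and 24.6 CPM in ALP and 42.8 and 43.1 CPM in control. All 4 values were separated by group, and ALP replicate B was again the lowest. The log2 difference of Lfng was -0.50 ± 0.19 (95% interval -0.97 to -0.04, adjusted p = 0.0896), and it was -0.81 when ALP replicate A was left out and -0.25 when B was. Rbpj, the factor through which the cleaved receptors reach DNA, lies on the same chromosome (53466152 to 53657362, plus strand). It measured 48.4 and 52.6 CPM in ALP against 40.9 and 41.1 CPM in control. Both ALP libraries were higher, by 0.30 ± 0.10 (95% interval 0.06 to 0.55, adjusted p = 0.0661), and Rbpj did not pass. Mouse Rbpj has processed pseudogenes, of which Rbpj-ps3 had 68 counts and Rbpj-ps1 had 0 over the 4 libraries, so reads shared with them make its count uncertain.

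The effector genes gave little sign of a common direction. Hes1, a repressor gene switched on by Notch (chromosome 16, 30064384 to 30067796, plus strand), measured 52.1 and 55.6 CPM in ALP and 46.1 and 50.6 CPM in control. The groups nearly touched (log2 difference 0.08 with control replicate A left out), and the log2 difference of 0.16 ± 0.10 did not pass (95% interval -0.10 to 0.41, adjusted p = 0.278). Hey1, a related repressor (chromosome 3, 8663359 to 8667256, minus strand), had 7 and 5 counts in ALP and 24 and 15 in control, or 0.405 and 0.323 CPM against 1.36 and 0.857 CPM. Its libraries did not overlap, but the counts were few, and the log2 difference of -1.58 ± 0.50 (95% interval -2.83 to -0.33) did not pass (adjusted p = 0.0615). Hey1 is also an endothelial gene. Of 5 endothelial markers Kdr and Pecam1 rose and Tek fell, and their summed level was 15.1 and 25.1 CPM in ALP against 6.23 and 7.77 CPM in control. Cdh5, which defines endothelium, had 3 counts over the 4 libraries, and Tie1 had between 1 and 8 per library.

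In 9 of the 10 genes, all but Notch2, both ALP values were above or both were below the control pair: 3 above and 6 below. Among all genes tested this held for 75.7% (38.2% above and 37.5% below), so the count is near the background. In 9 of the 10, again all but Notch2, ALP replicate B lay farther from the control mean than ALP replicate A. The share of all genes for which this held was not counted. On the first principal component of all tested genes ALP replicate B was the farther library too. Leaving out ALP replicate A, 2 members rose (Jag1 and Rbpj) and 5 fell (Notch1, Notch3, Jag2, Dll1 and Lfng), in a fit whose spread comes from the control pair alone and in which 50.7% of all genes were called. The fit without ALP replicate B likewise takes its spread from the control pair alone. It gave log2 differences of 0.50 for Jag1, -0.67 for Notch3 and -0.33 for Dll1.

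**Figure D4:**
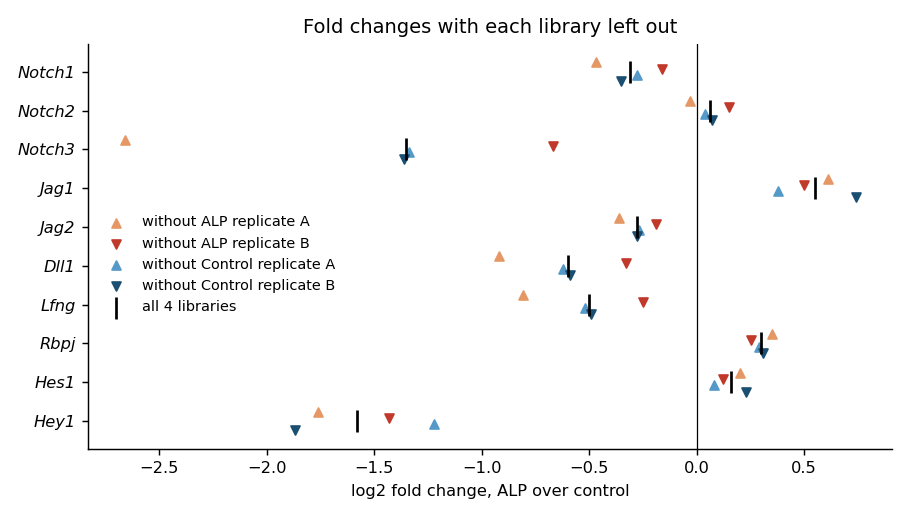
Fitted log2 fold change of each gene with all 4 libraries (black bars) and with 1 library left out (triangles). Notch3 moves between -2.66 and -0.67 with the ALP libraries, Jag1 between 0.38 and 0.74 with the control libraries, and Notch2 crosses 0.

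Beyond the members, 55 further pathway genes were followed in 7 lists, 44 of which passed the filter on low counts. Of these 3 rose and 9 fell, against 18.0% and 12.9% of all genes, and 32 did not pass. Their median log2 difference was -0.19. All 12 calls were lost without either control library and without the filter on low counts, where edgeR called 0 genes in all.

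Enzymes that glycosylate the receptors were the list with more increases. Of 4 tested, 2 rose and 0 fell by edgeR, against 18.0% and 12.9% of all genes. Poglut1, which adds O-glucose to the receptors, measured 61.7 and 80.6 CPM in ALP and 44.8 and 47.7 CPM in control, and rose by 0.62 ± 0.15 (adjusted p = 0.0311). Pofut1, which adds the O-fucose that fringe enzymes extend, measured 69.7 and 73.2 CPM in ALP and 55.4 and 57.8 CPM in control. Pofut1 rose by 0.34 ± 0.09 (adjusted p = 0.0405) but did not pass by DESeq2 (adjusted p = 0.0662) or without scaling factors (adjusted p = 0.0507). Rfng did not pass, at 26.1 ± 2.87 CPM in ALP and 30.6 ± 0.950 in control, and Mfng had 0 counts in every library, where 3 counts would be 0.172 to 0.190 CPM.

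Of 6 genes that prepare the ligands for signalling 2 fell and 0 rose by edgeR, against 12.9% and 18.0% of all genes. All 6 had a fitted difference below 0, as had 50.2% of all genes, and 4 did not pass. Mib2, a ubiquitin ligase that acts on ligands, measured 20.9 and 16.2 CPM in ALP and 38.0 and 35.0 CPM in control, and fell by 0.97 ± 0.16 (adjusted p = 0.0157). It had the smallest adjusted p of the 7 lists. Epn1, an endocytic adaptor, fell by 0.34 ± 0.09 (adjusted p = 0.0442), from 195 ± 4.04 to 154 ± 13.4 CPM. The related ligase Mib1 did not pass, at 173 ± 3.95 CPM in ALP and 186 ± 10.5 in control.

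Among 10 genes of receptor cleavage 1 rose and 1 fell, both in gamma-secretase, against 18.0% and 12.9% of all genes. Psen2, a catalytic subunit, measured 7.17 and 9.76 CPM in ALP and 3.91 and 3.54 CPM in control and rose by 1.18 ± 0.24 (adjusted p = 0.0232). Psenen, an obligate subunit, fell by 0.52 ± 0.15 from 31.8 ± 2.82 to 22.1 ± 3.23 CPM (adjusted p = 0.0495), and its adjusted p was 0.053 by edgeR's older quasi-likelihood method. The sheddase genes Adam10 (271 ± 8.04 CPM in ALP, 283 ± 11.7 in control) and Adam17 (126 ± 9.88 in ALP, 126 in both controls) and the gamma-secretase gene Ncstn (135 ± 5.86 and 135 ± 2.23) did not pass, with 95% intervals of the log2 difference within -0.27 to 0.23. Exons of Copa, with 28396 counts, overlap 4.91% of the exon bases of Ncstn on the other strand, and those of Iah1 (1067 counts) overlap 4.35% of Adam17.

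Of 12 nuclear partners of Rbpj 3 fell and 0 rose by edgeR, against 12.9% and 18.0% of all genes. A fitted difference below 0, which 50.2% of all genes had, was found in 11, and 9 did not pass. Maml3, a Mastermind coactivator, measured 41.8 and 21.7 CPM in ALP and 72.3 and 69.6 CPM in control and fell by 1.16 ± 0.29 (adjusted p = 0.0362), or by 0.75 without ALP replicate B. Maml1 (64.7 ± 7.53 CPM in ALP, 79.1 ± 1.20 in control) and Maml2 (32.1 ± 2.06 and 36.3 ± 1.63) did not pass. Kat2b, an acetyltransferase, fell by 0.70 ± 0.18 (adjusted p = 0.0381), or by 0.45 without ALP replicate B. Kdm5a, a histone demethylase that works with Rbpj in repression, fell by 0.37 ± 0.09 (adjusted p = 0.0313) from 160.1 ± 6.99 to 123 ± 7.20 CPM.

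Of 8 tested inhibitors and turnover genes 3 fell and 0 rose, against 12.9% and 18.0% of all genes. The Deltex genes Dtx2 and Dtx3, which encode ubiquitin ligases, fell by 1.16 ± 0.28 (adjusted p = 0.0318) and 0.57 ± 0.11 (adjusted p = 0.0198). Dtx2 measured 57.2 and 30.8 CPM in ALP and 98.1 and 98.9 CPM in control, while Dtx3 was even between the ALP libraries at 24.2 and 24.3 CPM against 36.9 and 35.0 CPM. Without ALP replicate B Dtx2 fell by 0.77. Numbl, a relative of the Notch inhibitor Numb, fell by 0.48 ± 0.13 (adjusted p = 0.0432), or by 0.32 without ALP replicate B. Numb itself did not pass (adjusted p = 0.0638), at 43.3 ± 2.91 CPM in ALP and 53.9 ± 2.01 in control.

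**Figure D5:**
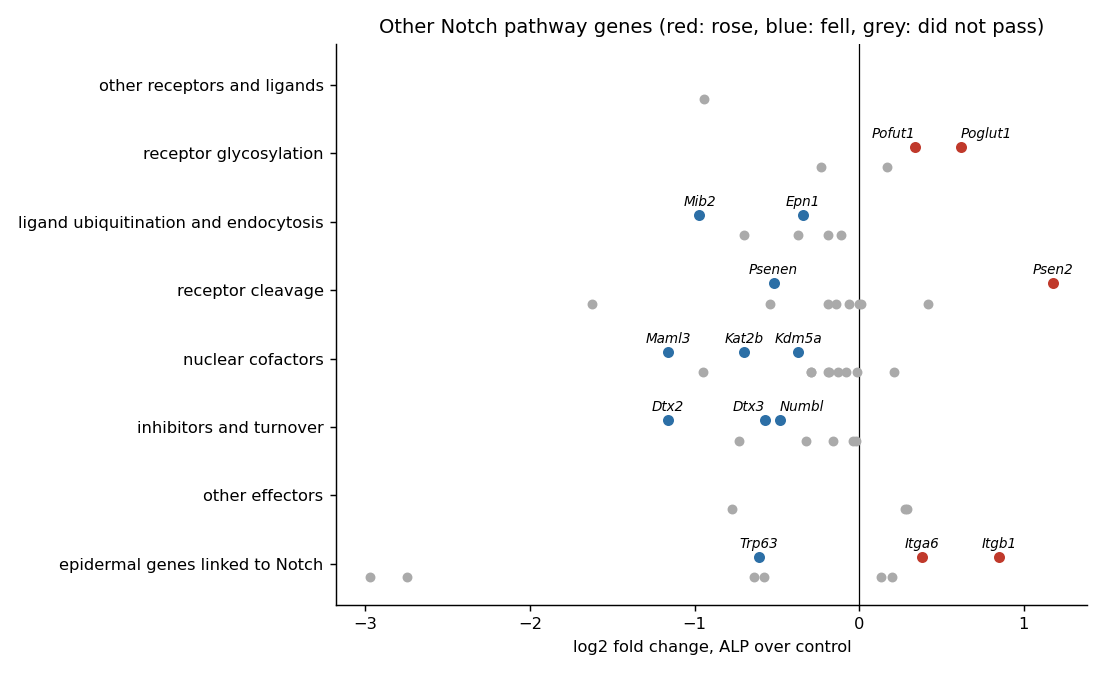
Fitted log2 fold change of the other tested Notch pathway genes and of 9 epidermal genes, 1 row per list, with red for genes that rose, blue for genes that fell and grey for genes that did not pass. Of the 7 pathway lists only receptor glycosylation and receptor cleavage hold a gene that rose by edgeR's test.

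Of 5 other receptors and ligands 1 passed the filter on low counts, and of 8 other effectors 3 did, with 0 called by edgeR in either list. Notch4 had 2 to 5 counts per library, Dll3 0 or 1, Dll4 and Dlk1 0 to 3, and Hes3 and Hey2 0 to 3, while Hes2, Hes5 and Heyl had 0 counts in all 4. Dlk2, a relative of the ligands that lacks their receptor-activating part, measured 39.5 and 16.5 CPM in ALP and 55.4 and 52.0 CPM in control. Its log2 difference was -0.94, and Dlk2 missed the threshold (adjusted p = 0.108). Nrarp, a feedback inhibitor that Notch itself induces, measured 9.08 and 6.14 CPM in ALP and 12.9 and 13.1 CPM in control. Nrarp missed the threshold as well (adjusted p = 0.0512), with a log2 difference of -0.77. A gene on the opposite strand with 0 counts, Gm38287, shares 79.4% of the exon bases of Nrarp. Its effect on the count of Nrarp was not tested. The level of Hes6 was 9.93 ± 0.690 CPM in ALP and 8.19 ± 1.26 in control, and Hes7 was at or under 1.03 CPM.

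Of 9 epidermal genes that act with or downstream of Notch, 2 rose and 1 fell, against 18.0% and 12.9% of all genes. Trp63, which encodes p63, the master regulator of the basal layer and a counterpart of Notch, measured 409 and 313 CPM in ALP and 563 and 536 CPM in control and fell by 0.61 ± 0.14 (adjusted p = 0.0304). The integrin genes Itgb1 and Itga6, which anchor basal cells, rose by 0.85 ± 0.14 (adjusted p = 0.0163) and 0.38 ± 0.10 (adjusted p = 0.0358). The basal keratin genes Krt5 and Krt14 did not pass, with log2 differences of -0.64 (adjusted p = 0.0719) and -0.58 (adjusted p = 0.0982). Cdkn1a, a cell cycle inhibitor gene induced by Notch in keratinocytes, did not pass (adjusted p = 0.171), at 329 ± 34.6 CPM in ALP and 286 ± 6.16 in control.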

How the data were processed

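RNA from 4 EpSC samples was extracted with TRIzol, per the labels' protocols. The kit, its strandedness and the read layout are unstated in the sources used here, and a gene's reads cannot be separated from those of an antisense gene. The submitters' processing notes name HISAT2 2.0.5, featureCounts 1.5.0-p3 and the human build GRCh38. All identifiers are mouse ones: 99.9% of the 54532 occur in GENCODE M21, 98.2% of those with identical positions, so coordinates are given as GRCm38. The counts the authors deposited are whole numbers, not normalized. The 4 columns of deposited FPKM were not used, and levels per length were computed from the counts and the table's gene lengths. The group means (normalized signal), log2 fold changes and p-values that the authors deposited come from an unstated test and support nothing printed here. Symbols turned into dates in 27 rows were restored by identifier, and 0 rows named no gene.

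The replicate numbers of the table's columns differ from those of the labels, so columns were assigned to groups only. The test ran in edgeR 4.0.16 under R 4.3.3: filterByExpr (minimum count 10, minimum total 15), TMM scaling, and the two-sided quasi-likelihood F test of ALP against control with the group alone, fitted on the whole table with Benjamini-Hochberg adjustment over 14056 genes. The fit had 2 residual and a median of 3.60 prior degrees of freedom. Each standard error is the size of the log2 difference over the root of its F statistic, and 95% intervals use the total degrees of freedom of each gene. With counts simulated for this comparison over 13765 genes, 64.3% of genes changed by 1 on the log2 scale and 95.3% of those changed by 2 were recovered. The simulation gave every gene the same coefficient of variation, 0.144, and changed 200 genes. In the data 30.9% of genes were called, and the ALP pair differed more than the control pair. These recovery rates need not hold for the members. Alternatives used DESeq2 1.42.0, limma-voom (limma 3.58.1), other scalings and filters, and the left-out libraries. Of the newer and older quasi-likelihood methods of edgeR, the newer (legacy set to FALSE) was kept because it gave the number of calls of an earlier analysis of these data, and the older became an alternative. Both choices were made after seeing the data. Floors cover counting error only, since no molecular identifiers are mentioned in the sources used here.

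The members and lists were chosen with earlier results of these data known. The named genes are all 10 members, every gene of the other lists that passed, and for Jag1 the 3 protein-coding genes nearest in profile. Krt1, Krt10 and other genes that did not pass are named as context, picked after seeing their values, as were the 3 promoters shown. Markers of fibroblasts (5, of which 1 fell) and immune cells (5, of which 2 had 0 counts throughout) were also measured, at summed levels of 4.01 to 16.0 CPM and 5.04 to 9.42 CPM per library. Some genes of the lists are counted but not reported here by name.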

Additional observations from a re-analysis of the deposited data

How the results depend on the processing

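For the members and the 15 other genes that passed, 273 fold changes were recomputed. Of these, 210 kept their direction with no move across the threshold. They include Hey1 by DESeq2, which gave it no adjusted p. Another 51 kept the direction and no longer passed, and 11 kept the direction and newly passed. The remaining 1 turned sign: Notch2, which ranged from -0.03 (without ALP replicate A) to 0.15 over the left-out libraries. Without the filter on low counts edgeR called 0 genes, so 0 members, 0 of the other pathway genes and 0 of all genes were higher or lower, with 7068 genes at an unadjusted p under 0.05. With 1 library left out, counts ranged from 0 to 2 members higher and 0 to 5 lower, from 0 to 5 other pathway genes higher and 0 to 20 lower, and from 0 to 3872 of all genes higher and 0 to 3646 lower. All the zeros for higher genes came without a control library. One member was lower by DESeq2 (Dll1), limma-voom (Dll1) and with a minimum of 10 CPM (Jag2, where Hey1 could not be tested), and DESeq2 called 14 other pathway genes lower. Of all genes, these tests called 32.0% (DESeq2, of genes with an adjusted p), 33.7% and 39.7%. At an adjusted p under 0.1, 2 members were higher and 5 lower, and 17 other pathway genes were lower. Among all genes 24.2% were then higher and 21.2% lower. The cause of these differences was not tested. Shares of ligands and receptors are the same from counts per kilobase by construction. No paired analysis was possible because the columns of the groups share only 1 number: the ALP columns are numbered 2 and 3, the control columns 1 and 3, and the labels use 1 and 2 in each group. Depth limits Hey1, with 5 to 24 counts per library, and leaves Notch4, Dll4 and Hes3 at or near the floor of 3 counts.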

Other observations

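Among 8963 protein-coding genes that averaged 10 CPM or more, the 3 whose profile over the 4 libraries lay nearest to that of Jag1 were Erc1, Setd6 and Efemp2, at Euclidean distances of 0.043, 0.048 and 0.050 in centred log2 CPM. Erc1, which encodes a scaffold protein, measured 94.1 and 107 CPM in ALP and 61.0 and 75.6 CPM in control. A distance under 0.2 held for 390 genes, so 4 libraries single out no close partner of Jag1.

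Per length, the ligand transcripts outweighed the receptor transcripts in every library. Summed CPM per kilobase of Jag1, Jag2 and Dll1 over that of Notch1, Notch2 and Notch3 was 2.39 and 2.68 in the controls and 2.87 and 3.38 in ALP. The ratio was higher in both ALP libraries, with no test. It depends on the gene lengths used, such as the 14232 bases of merged exons for Notch1. Before division by length, Notch1 (451 and 428 CPM) was above Jag1 (259 and 328) and Jag2 (362 and 354) in the controls. In ALP, Notch1 (390.0 and 317 CPM) was below Jag1 (411 and 450.3) and above Jag2 (312 and 279.9).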
